A study of Mus musculus with 18 samples.

Results

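The 9 genes described here encode core factors of nonsense-mediated mRNA decay: Upf1, Upf2, Upf3a, Upf3b, Smg1, Smg5, Smg6, Smg8 and Smg9. They were chosen by symbol, through the Ensembl identifiers that GENCODE M21 gives these symbols, and the rule uses no measured value, though earlier results of these data were known when the set was chosen. They are 9 of 55536 annotated genes in the gene count matrix, and 45 of 141862 annotated transcripts in the transcript count matrix. The libraries come from mouse CD8+ T cells of spleen and lymph nodes, and the title of the series places the work around TRA2B, a splicing factor of the SR-like family, and its poison exon. All groups share the genotype OT-I, a transgene for a T cell receptor specific for SIINFEKL, a peptide of ovalbumin. Tra2bKO (n = 2) and control (n = 8, called scrambled in the design) were collected on day 4 of an activation with that peptide plus antibodies against OX40 and 41BB, a pair of costimulatory receptors. Naive (n = 8) is day 0. How Tra2b was disrupted, the animals' age and sex, and whether libraries of a group came from separate animals are not given in the sources used here, so p-values measure the spread between libraries, which may be technical.

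Nonsense-mediated decay removes mRNAs on which the ribosome stops at a codon read as premature, typically one upstream of an exon junction complex. UPF1 is the RNA helicase of the pathway, and UPF2 and the UPF3 proteins link it to the junction complex. SMG1 is the kinase that phosphorylates UPF1, SMG8 and SMG9 are its partner proteins, and SMG5 and SMG6 bind phosphorylated UPF1, with SMG6 cutting the mRNA and SMG5 leading it to decapping and deadenylation. Splicing that includes a poison exon or keeps an intron can put a premature stop codon into an mRNA, and in human cells the mRNAs of several of these factors are themselves substrates of the pathway.

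Total estimated counts per library ran from 68249844 to 93972513. The targeted gene, Tra2b, had 361 and 370.5 CPM (counts scaled by library size with TMM factors) in the Tra2bKO libraries, and 338, 484 and 525.9 CPM (lowest, median, highest) in control. The ranges overlap, and the change by edgeR's quasi-likelihood test was -0.34 on the log2 scale (SE 0.13; p-values are adjusted by Benjamini-Hochberg over all genes tested; adjusted p = 0.0899), so the gene-level count of Tra2b does not check the label. The Tra2bKO libraries differed from each other. The slope of a library's log2 levels, relative to the control mean, on exon length was 0.024 and 0.145 per doubling in Tra2bKO, -0.052 to 0.032 in control and 0.076 to 0.153 in naive. The slope on GC content was -0.148 and -0.104 per 10% in Tra2bKO, against -0.033 to 0.042 in control. A set of 6 CD8 T cell markers summed to 3423 to 3932 CPM in Tra2bKO, 3448 to 4279 in control and 5356 to 6430 in naive, and Cd4 stayed at or under 1.48 CPM in every library. Of this set, Trac had 767 to 854 CPM in Tra2bKO against 1054 to 1340 in control. For Cd3d, Cd3e, Cd3g, Cd8a and Cd8b1 the ranges of these groups overlapped. Summed over 4 MHC class II genes, levels were 77.3 to 100.1 CPM in Tra2bKO, 119 to 446 in control and 1107 to 3282 in naive. The 5 B cell markers (3.90 to 7.23 CPM in Tra2bKO, 6.90 to 13.1 in control, 23.8 to 65.0 in naive) and the 3 dendritic cell markers (1.91 to 2.31 CPM in Tra2bKO, 1.67 to 5.39 in control, 30.7 to 87.1 in naive, with Siglech at 0 in both stimulated groups) were also highest in naive. In Tra2bKO against control, the 3 NK markers summed to 423 to 494 against 121 to 346 CPM, nearly all of it Klrk1, the 4 myeloid markers to 35.9 to 58.0 against 14.4 to 34.0 CPM and the 2 erythroid markers to 7.81 to 76.0 against 0.188 to 10.6 CPM. In naive these sums were 227 to 366, 23.8 to 93.5 and 1.15 to 22.9 CPM. Ncr1 and Klrb1c, the NK markers besides Klrk1, had medians of 0.42 and 0.32 CPM in Tra2bKO, against 0.54 and 0.69 in control. Of the myeloid markers, Lyz2 had 22.2 to 47.2 CPM in Tra2bKO against 3.78 to 22.3 in control. Itgam, Csf1r and Cd14 in Tra2bKO lay within their control ranges. The part of other cells in the results on the 9 factors was not tested.

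All 9 factors were well covered, with 1425 to 8163 counts per library, and all passed the filter on low counts in every comparison. For each factor the deposited gene count equalled the sum of its transcript counts. In GENCODE M21 (GRCm38) Upf1 lies at chr8:70331525-70353278 on the minus strand, Upf2 at chr2:5951469-6056703 on the plus strand, Upf3a at chr8:13785615-13799193 on the plus strand and Upf3b at chrX:37091678-37110322 on the minus strand. Smg1 spans chr7:118131308-118243670 on the minus strand and Smg9 spans chr7:24399619-24422778 on the plus strand. Smg5 is at chr3:88336260-88362338 (plus), Smg6 at chr11:74925823-75164448 (plus) and Smg8 at chr11:87077732-87086774 (minus). The coding transcript with the most counts ranged from 2057 bases for Upf3a to 15557 bases and 63 exons for Smg1. Its median length over the 9 factors was 4448 bases, against 2902 over 10956 coding genes, while the median 3′ UTR was 958 bases, against 992. Of the 9 loci, 4 overlap other genes. On the other strand, Upf1 shares its span with Cers1 and Gdf1, and Smg8 with a processed pseudogene. Smg6 shares its span with Srr and with non-coding genes and pseudogenes, all on the other strand. Smg1 overlaps a small nucleolar RNA on the other strand and Gm45084 on its own strand. Whether counting used strand is not given in the sources used here, so reads of such pairs cannot be told apart. Strand could not tell reads of Smg1 and Gm45084 apart in any case.

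Per length, as transcript counts divided by transcript length and scaled to the same total in every library (TPM), the factors spanned a wide range. In control the medians were 32.8 for Smg5, 31.7 for Upf3a, 28.2 for Smg9, 19.9 for Smg8, 18.5 for Upf3b, 15.3 for Upf1, 10.2 for Smg6, 6.73 for Upf2 and 4.26 for Smg1. Neighbours in that order overlapped across the 8 libraries except Smg9 above Smg8, Upf1 above Smg6 and Upf2 above Smg1. The effector gene Smg5 and the adaptor gene Upf3a were at the top of the control order, and the kinase gene Smg1 and the scaffold gene Upf2 at the bottom. Tra2bKO had Smg5 at 28.2 and 40.1 TPM, Upf3a at 33.3 and 33.9, Smg1 at 4.61 and 5.95 and Upf2 at 6.80 and 12.0. In naive the median of Smg1 was 10.9 TPM, above the 10.1 of Upf2, and the top 3 were Smg5 (42.1), Smg9 (41.7) and Upf3a (34.9).

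In Tra2bKO against control, 1 of the 9 factors was called higher (Smg6) and 2 lower (Upf3b and Smg9) at an adjusted p under 0.05, and 6 were not called. Over all 18651 genes tested, 14.9% were called, 7.62% higher and 7.24% lower. In control against naive, 4 of 9 were lower (Smg1, Upf2, Smg9 and Smg5) and 0 higher, where 71.5% of 17078 genes were called, 32.5% higher and 39% lower. At an unadjusted p under 0.05, 1 was higher there (Smg8), and DESeq2 at an adjusted p under 0.05 gave 3 higher (Upf1, Upf3b and Smg8). In Tra2bKO against naive, 1 was higher (Smg6) and 3 lower (Smg1, Smg9 and Upf3b), where 44.7% of 19776 genes were called, 21.1% higher and 23.6% lower. The median log2 fold change of the factors was -0.00, -0.14 and -0.02 in these 3 comparisons, beside -0.01, -0.08 and -0.08 over all genes tested. On simulated counts, the gene-level test recovered 43.3%, 64.2% and 29.9% of planted 1.5-fold changes in these comparisons. A factor that was not called is thus not shown to be unchanged. The comparisons share libraries in pairs, so their values are given side by side. Overlap of the groups' levels is described for each factor below. How many of all genes have levels without overlap was not counted, so such a separation cannot be called particular to these factors. In bulk RNA, fewer cells of a type and less RNA per cell cannot be told apart. Levels are also relative to the counts of their library, so total RNA per cell is not measured.

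**Figure D1:**
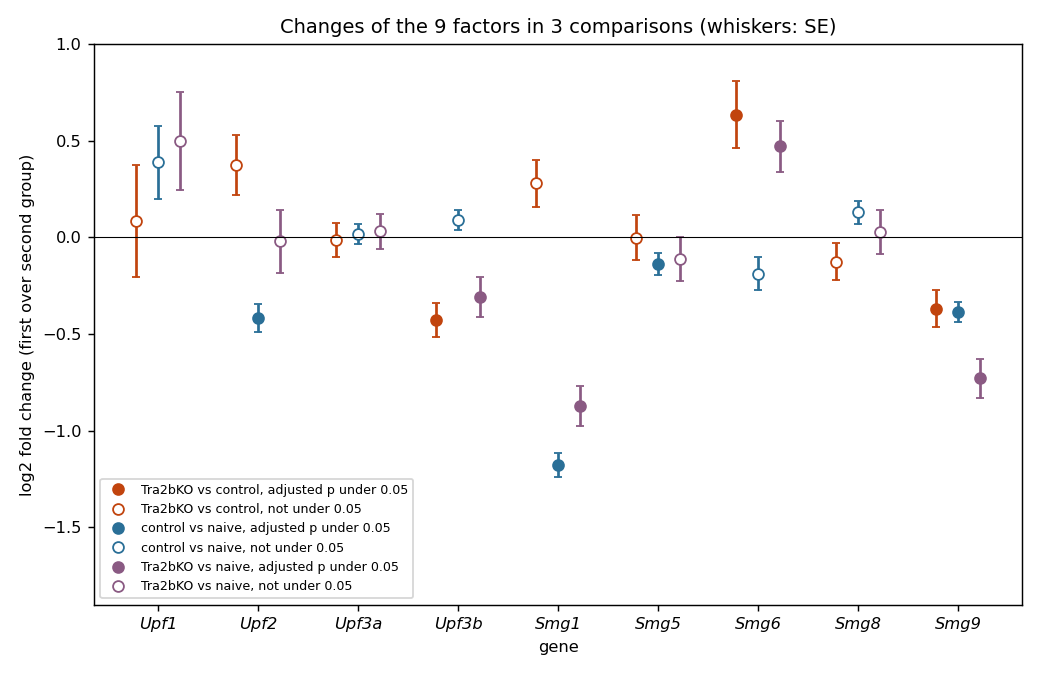
Log2 fold change of each factor (y axis, first group over second; whiskers are SE) in Tra2bKO against control, control against naive and Tra2bKO against naive; filled points have an adjusted p under 0.05 by edgeR. Smg1 had the largest change, -1.18 in control against naive, and Smg6 the largest in Tra2bKO against control, 0.64.

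The helicase gene Upf1 had 41.5 and 67.3 CPM in Tra2bKO, 37.5, 42.2 and 78.7 CPM (lowest, median, highest) in control and 25.3, 37.7 and 60.9 CPM in naive. All 3 groups overlapped, and libraries of 1 group differed more than 2-fold. None of its changes was called: 0.09 (SE 0.29, adjusted p = 0.885) in Tra2bKO against control, 0.39 (SE 0.19, adjusted p = 0.0728) in control against naive and 0.50 (SE 0.25, adjusted p = 0.133) in Tra2bKO against naive. With a smooth trend on exon length and GC content removed from each library, Upf1 was called higher in control and in Tra2bKO than in naive, at 0.56 (adjusted p = 0.00636) and 0.76 (adjusted p = 0.0145). It was also called in control against naive without control 1, 3, 4 or 5 or naive 8, with adjusted p from 0.0134 to 0.0441 among these 5 fits.

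Upf2, the scaffold that joins UPF1 to UPF3 proteins, had 20.8 and 34.6 CPM in Tra2bKO, 19.0, 21.2 and 25.9 CPM in control and 24.4, 29.9 and 32.5 CPM in naive. The first Tra2bKO library lay inside the control range and the second above every other library of the series. Control was lower than naive by 0.42 on the log2 scale (-0.42, SE 0.07, adjusted p = 5.59e-05), a level 0.749 times that of naive, and only control 6, at 25.9 CPM, reached the naive range. Tra2bKO was not called against control (0.37, SE 0.15, adjusted p = 0.128) or against naive (-0.02, SE 0.16, adjusted p = 0.931). Without Tra2bKO 1 the change against control was 0.68 (adjusted p = 0.00876), and without Tra2bKO 2 it was -0.03 (adjusted p = 0.955). In every fit with 1 Tra2bKO library, the spread comes from the 8 libraries of the other group alone, and the lone library is assumed to vary like them.

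The UPF3 paralogs behaved differently. Upf3a, the paralog with the weaker decay activity in human cells, had 41.0 and 39.3 CPM in Tra2bKO, 38.5, 40.3 and 46.2 CPM in control and 35.6, 40.5 and 44.8 CPM in naive, with full overlap. It changed by -0.01 (SE 0.09, adjusted p = 0.941) in Tra2bKO against control, by 0.02 (SE 0.05, adjusted p = 0.761) in control against naive and by 0.03 (SE 0.09, adjusted p = 0.82) in Tra2bKO against naive, none of them called. Upf3b, the X-linked paralog that binds the exon junction complex, had 18.7 and 20.2 CPM in Tra2bKO, 24.8, 26.2 and 28.5 CPM in control and 22.4, 24.0 and 27.4 CPM in naive. Both Tra2bKO libraries were below all 16 others. Upf3b fell by 0.43 in Tra2bKO against control (-0.43, SE 0.09, adjusted p = 0.00744, 0.744-fold) and by 0.31 against naive (-0.31, SE 0.10, adjusted p = 0.0263), while control and naive overlapped (0.09, SE 0.05, adjusted p = 0.125). With 1 Tra2bKO library at a time the change against control was -0.48 (adjusted p = 0.0492) for the first and -0.38 (adjusted p = 0.0514) for the second, and against naive -0.35 (adjusted p = 0.0779) and -0.28 (adjusted p = 0.153).

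Smg1, the kinase of the pathway, showed the widest separation of the 9. It had 34.2 and 43.5 CPM in Tra2bKO, 29.5, 30.3 and 36.5 CPM in control and 66.9, 72.3 and 78.9 CPM in naive. Means were 38.8 ± 6.56 CPM in Tra2bKO (SD, n = 2), 32.1 ± 3.11 in control and 72.7 ± 4.48 in naive (SD, n = 8 each). Every naive library was above every stimulated one. Control was at 0.442 times the naive level (log2 fold change -1.18, SE 0.06, adjusted p = 2.87e-11), and Tra2bKO at 0.546 times (-0.87, SE 0.10, adjusted p = 3.19e-05). The change in control against naive was -0.62 (adjusted p = 1.97e-08) with the length and GC trend removed, a smaller value for this gene with the longest main transcript of the 9. Against control, Tra2bKO was not called at 0.28 (SE 0.12, adjusted p = 0.148), and the sign turned to -0.03 (adjusted p = 0.898) with that trend removed.

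The genes of the SMG1 partner proteins differed. Smg8 had 31.9 and 38.2 CPM in Tra2bKO, 33.1, 39.3 and 40.4 CPM in control and 29.8, 35.4 and 39.5 CPM in naive. The groups overlapped, and no change was called (-0.13, SE 0.10, adjusted p = 0.441 in Tra2bKO against control; 0.13, SE 0.06, adjusted p = 0.0678 in control against naive; 0.03, SE 0.11, adjusted p = 0.864 in Tra2bKO against naive). Smg9 had 29.1 and 27.2 CPM in Tra2bKO, 33.2, 36.6 and 39.6 CPM in control and 43.8, 47.6 and 53.7 CPM in naive, and no library of any group reached into another group's range. Smg9 fell by 0.37 in Tra2bKO against control (-0.37, SE 0.09, adjusted p = 0.0222), by 0.39 in control against naive (-0.39, SE 0.05, adjusted p = 3.63e-06) and by 0.73 in Tra2bKO against naive (-0.73, SE 0.10, adjusted p = 0.000104). The call against control was kept without Tra2bKO 1 (-0.43, adjusted p = 0.0487) and lost without Tra2bKO 2 (-0.31, adjusted p = 0.224), with the length and GC trend removed (-0.18, adjusted p = 0.269) and with limma voom with quality weights (-0.37, adjusted p = 0.0603). The longest annotated Smg9 transcript is 60.3% GC, the highest of the 9 factors.

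Among the effectors, Smg5, the adaptor that binds phosphorylated UPF1 and recruits decay enzymes, had 64.2 and 89.6 CPM in Tra2bKO, 67.3, 76.7 and 88.2 CPM in control and 73.1, 86.4 and 91.5 CPM in naive. The Tra2bKO libraries lay on either side of the control range, and the change was not called (-0.00, SE 0.12, adjusted p = 0.997), nor was that against naive (-0.11, SE 0.11, adjusted p = 0.452). Control was lower than naive by 0.14 (-0.14, SE 0.06, adjusted p = 0.0333), a small change whose groups overlap. That call was lost when any of 12 of the 16 libraries was left out, with adjusted p up to 0.168, and the sign turned to 0.08 (adjusted p = 0.133) with the length and GC trend removed.

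Smg6, the endonuclease, had 41.6 and 65.0 CPM in Tra2bKO, 24.4, 35.0 and 42.1 CPM in control and 35.0, 39.5 and 43.5 CPM in naive. The first Tra2bKO library was inside both other ranges and the second was above all. Tra2bKO was 1.55 times control (0.64, SE 0.18, adjusted p = 0.0308) and 1.39 times naive (0.47, SE 0.13, adjusted p = 0.0115), and control against naive was not called (-0.19, SE 0.09, adjusted p = 0.0557). Both calls in Tra2bKO rest on the second library: without it the change was 0.29 against control (adjusted p = 0.536) and 0.14 against naive (adjusted p = 0.462). Without control 7 the adjusted p against control was 0.05001 at 0.62, and with limma voom with quality weights it was 0.0515 at 0.61.

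**Figure D2:**
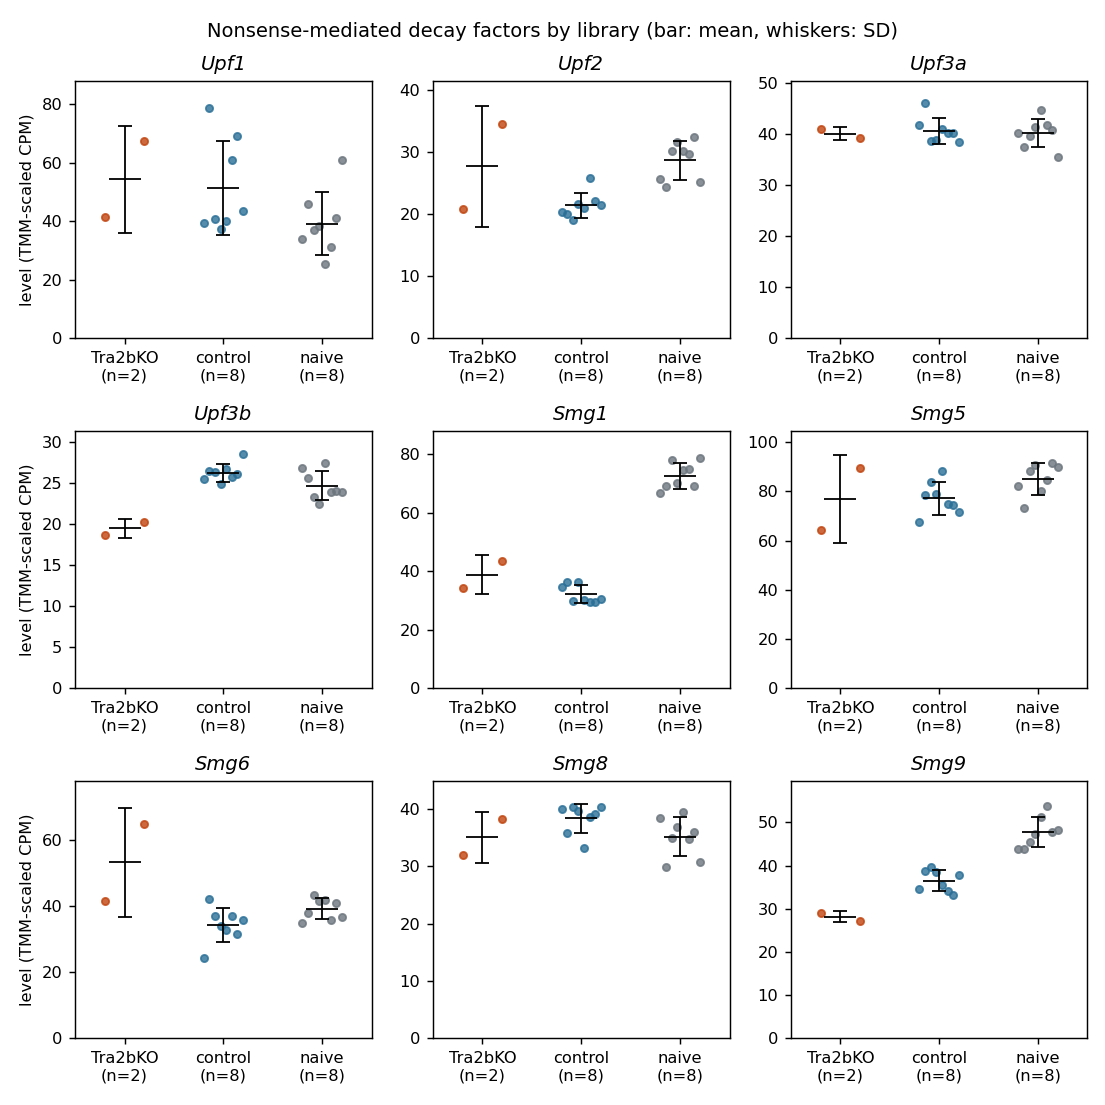
TMM-scaled CPM (y axis, from 0) of each factor in the 2 Tra2bKO, 8 control and 8 naive libraries, 1 point per library, with the group mean and SD. Smg9 separates all 3 groups, Smg1 separates naive from both others, Upf3b separates Tra2bKO from both others, and Smg6 has 1 Tra2bKO library at 65.0 CPM above the rest. How many of all genes separate the groups in this way was not counted.

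The plot of Tra2bKO against control under 4 settings shows how far each factor depends on 1 of the 2 Tra2bKO libraries. Without the second, the sign turned for Upf1 (-0.29, adjusted p = 0.752), Upf2 (-0.03) and Upf3a (0.03, adjusted p = 0.934), and without the first, for Smg5 (0.21, adjusted p = 0.337). Upf3b and Smg9 were lower and Smg6 higher in both single-library fits. Smg1 stood at 0.43 without the first and 0.11 without the second, and Smg8 at -0.01 and -0.25, none of them called.

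**Figure D3:**
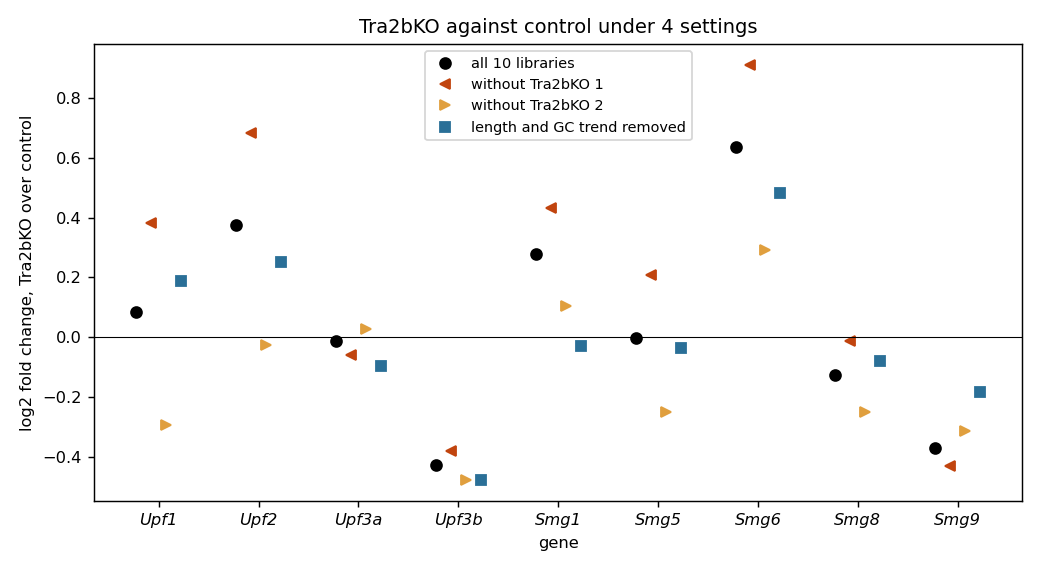
Log2 fold change in Tra2bKO over control (y axis) of each factor with all 10 libraries, without the first or the second Tra2bKO library, and with the trend on exon length and GC content removed. Upf3b stays between -0.48 and -0.38 and Smg6 runs from 0.29 to 0.91.

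The other genes of the pathway were taken from a list of 28. In Tra2bKO against control, 2 of 28 tested were higher and 2 lower, with a median of 0.00195, beside 7.62% higher and 7.24% lower and a median of -0.01 over all genes tested. That share is near the one over all genes. Cnot1, the scaffold of the deadenylase complex, had 156 and 529 CPM in Tra2bKO and 128, 155 and 179 CPM in control (1.14, SE 0.27, adjusted p = 0.0183). The other was Dcp1a, a decapping activator, at 34.9 and 96.2 CPM in Tra2bKO and 30.2, 34.5 and 40.0 CPM in control (0.92, SE 0.24, adjusted p = 0.0225). For both the first Tra2bKO library lay within the control range and the second far above it, as for Smg6. Without the second, 0 of the 28 were called higher, and the changes of Cnot1 and Dcp1a were 0.02 each (adjusted p = 0.97 and 0.96). Gnl2, a nucleolar GTPase, was lower at 54.9 and 57.8 CPM in Tra2bKO against 81.0, 96.8 and 112 CPM in control (-0.78, SE 0.11, adjusted p = 0.00133), and the change was -0.80 (adjusted p = 0.0201) with the first Tra2bKO library alone and -0.75 (adjusted p = 0.0089) with the second. Rnps1, a junction complex protein, was also lower (-0.32, SE 0.08, adjusted p = 0.0159), a call lost without Tra2bKO 2 (-0.19, adjusted p = 0.26). Gnl2 and Rnps1 are named after their values were seen. The pathway genes named here whatever their values were not called. Eif4a3 changed by -0.15 (adjusted p = 0.193), Magoh by -0.11 (adjusted p = 0.457) and Rbm8a by -0.05 (adjusted p = 0.757). Casc3 changed by 0.38 (adjusted p = 0.221), Etf1 by 0.12 (adjusted p = 0.394) and Gspt1 by -0.01 (adjusted p = 0.977).

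In control against naive, 15 of 27 pathway genes tested were higher and 6 lower, with a median of 0.48, beside 32.5% higher and 39% lower and a median of -0.08 over all genes tested. All of the Y14-Magoh-eIF4A3 core of the exon junction complex was higher: Eif4a3, its helicase, had 420, 443 and 494 CPM in control and 250, 282 and 311 CPM in naive (0.67, SE 0.05, adjusted p = 2.94e-09). Magoh changed by 0.76 (adjusted p = 9.07e-08), Rbm8a, which encodes Y14, by 0.62 (adjusted p = 3.49e-08) and Magohb by 1.13 (adjusted p = 1.75e-08). Casc3, the junction complex protein linked to decay, was not called (-0.17, SE 0.10, adjusted p = 0.153). The release factor genes Etf1 (0.76, SE 0.07, adjusted p = 1.57e-08) and Gspt1 (0.57, SE 0.12, adjusted p = 0.000387) were higher. Ruvbl2, an ATPase that assembles the SMG1 family of kinases, was higher at 0.94 (SE 0.09, adjusted p = 3.13e-08). On the lower side, 2 genes are named after their values were seen: Dcp1b, a decapping activator, changed by -0.81 (SE 0.08, adjusted p = 4.96e-08), and Pnrc2, which bridges decay and decapping, by -0.75 (SE 0.06, adjusted p = 2.16e-09). In Tra2bKO against naive, 16 of 28 were higher and 5 lower, with a median of 0.50, beside 21.1% higher and 23.6% lower and a median of -0.08 over all genes tested. Among them were Cnot1 (1.33, adjusted p = 0.00169), Magohb (1.23, adjusted p = 4.4e-05), Etf1 (0.91, adjusted p = 1.78e-05), Eif4a3 (0.55, adjusted p = 0.000366), Magoh (0.68, adjusted p = 0.00111), Rbm8a (0.60, adjusted p = 0.000255) and Gspt1 (0.58, adjusted p = 0.0094), all higher. Casc3 was not called (0.24, adjusted p = 0.248). The 5 called lower are named after their values were seen. They were Pnrc2 (-1.03, adjusted p = 5.43e-06), Gnl2 (-0.83, adjusted p = 2.69e-05), Dcp1b (-0.71, adjusted p = 0.000647), Secisbp2 (-0.53, adjusted p = 0.000298) and Dhx34 (-0.50, adjusted p = 0.0122). Without Tra2bKO 2, 12 of 28 were called higher, and Cnot1 was not (0.22, adjusted p = 0.367). With total counts in place of TMM the median of all genes in Tra2bKO against naive moved to -0.19, and with the trend on length and GC removed to 0.06.

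A second list held 20 genes reported as substrates of the pathway in mammalian cells, 6 of them (Smg5, Upf3b, Smg1, Upf1, Upf2 and Smg6) among the 9 factors. In Tra2bKO against control, 2 of 20 were higher, Atf4 and Smg6, and 2 lower, Nat9 and Upf3b, beside 7.62% and 7.24% of all genes tested. Atf4, a stress transcription factor whose mRNA has upstream reading frames, had 190.4 and 171 CPM in Tra2bKO and 119, 123 and 132 CPM in control (0.54, SE 0.06, adjusted p = 0.000462). Gas5, a small nucleolar RNA host with a short reading frame, had 206 and 179 CPM in Tra2bKO and 165, 175 and 204 CPM in control (0.11, SE 0.09, adjusted p = 0.463). The largest called change was Nat9, at 2.965 and 2.997 CPM in Tra2bKO and 4.78, 5.82 and 6.80 CPM in control (-0.95, SE 0.16, adjusted p = 0.00299). In control against naive, 6 of 20 were higher and 8 lower, close to the 32.5% and 39% of all genes tested. Ddit3, a stress transcription factor, had the largest change (-1.43, SE 0.10, adjusted p = 4.6e-10), Gas5 was lower (-0.47, SE 0.05, adjusted p = 1.03e-07) and Atf4 was higher (0.21, SE 0.05, adjusted p = 0.000426). In Tra2bKO against naive, 6 of 20 were higher and 7 lower, beside 21.1% and 23.6% of all genes tested; Gas5 changed by -0.33 (adjusted p = 0.00713) and Atf4 by 0.78 (adjusted p = 1.49e-05). Upp1 had the largest fitted change there (-3.50, SE 0.95, adjusted p = 0.0108), at 0 CPM in both Tra2bKO libraries and at most 0.509 CPM in naive, so that value depends on the prior count and gives no fold.

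Of the factors, 5 have transcripts annotated as retained introns, that is, non-coding models that hold intronic bases: Smg1, Smg5, Smg6, Smg9 and Upf3a. Smg5-203, Smg9-205, Smg6-203 and Upf3a-203 held the largest shares among the retained-intron models of their genes in naive. Each of these 4 models ends within the intron after its last shared exon: Smg5-203 covers 1148 of 1381 intronic bases after exon 12, Smg9-205 covers 640 of 7305 after exon 6, Smg6-203 covers 1991 of 48397 after exon 10 and Upf3a-203 covers 3024 of 3229 after exon 5. The exon borders are printed to show where the models leave the spliced mRNA, with 30 exonic bases in lower case and the first 60 intronic bases in capitals, read on the plus strand of GRCm38 from the GENCODE M21 transcript sequences, at chr3:88351552-88351641, chr7:24407604-24407693, chr11:74990186-74990275 and chr8:13792181-13792270.
Smg5-203: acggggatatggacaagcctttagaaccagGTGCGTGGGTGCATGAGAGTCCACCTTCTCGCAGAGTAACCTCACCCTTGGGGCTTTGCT
Smg9-205: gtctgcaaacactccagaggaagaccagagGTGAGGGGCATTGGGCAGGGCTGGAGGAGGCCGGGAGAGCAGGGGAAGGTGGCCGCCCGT
Smg6-203: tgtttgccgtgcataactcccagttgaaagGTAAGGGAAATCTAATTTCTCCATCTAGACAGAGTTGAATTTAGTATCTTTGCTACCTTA
Upf3a-203: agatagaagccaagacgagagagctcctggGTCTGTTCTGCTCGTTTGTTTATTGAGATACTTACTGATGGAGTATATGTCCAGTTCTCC
All 4 intronic stretches open with GT.

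Retained-intron models held 21.1% and 13.8% of the counts of Smg5 in Tra2bKO, 15.8%, 19.7% and 23.5% in control and 26.3%, 29.97% and 36.8% in naive. Control and naive did not overlap, and both Tra2bKO libraries lay below naive. For Smg9 the shares were 7.51% and 6.53% in Tra2bKO, 3.86%, 6.65% and 7.68% in control and 10.1%, 12.7% and 15.1% in naive, again with no overlap between naive and the stimulated groups. Smg6 had 1.45% and 1.81% in Tra2bKO, 0.829%, 1.60% and 2.62% in control and 2.44%, 4.50% and 6.75% in naive, where 1 control library reached the naive range. Upf3a had 3.35% and 3.83% in Tra2bKO, 1.29%, 2.42% and 5.44% in control and 5.11%, 6.26% and 8.20% in naive. Smg1, which had the largest gene-level change of the 9, showed no such split, with 4.02% and 3.23% in Tra2bKO, 2.099%, 3.31% and 6.96% in control and 3.49%, 4.23% and 4.89% in naive.

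The share of control lay below that of naive without overlap for 2 of these 5 factors, beside 18.9% of 6535 genes. These genes have retained-intron models with any counts, and a mean of at least 1 CPM summed over all transcripts of the gene. The share of Tra2bKO lay below that of naive for 4 of 5, beside 31.1%, and for 0 of 5 below or above control, beside 2.59% and 7.3%. Over all 9 factors together the share was 5.90% and 4.30% in Tra2bKO, 4.35%, 5.84% and 6.86% in control and 8.49%, 9.35% and 10.8% in naive. Over all genes it was 3.65% and 3.66% in Tra2bKO, 3.10%, 3.61% and 3.82% in control and 5.22%, 5.56% and 6.16% in naive, so the factors moved in the direction of the whole transcriptome. The deposited transcript counts are estimates that divide reads between overlapping models.

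**Figure D4:**
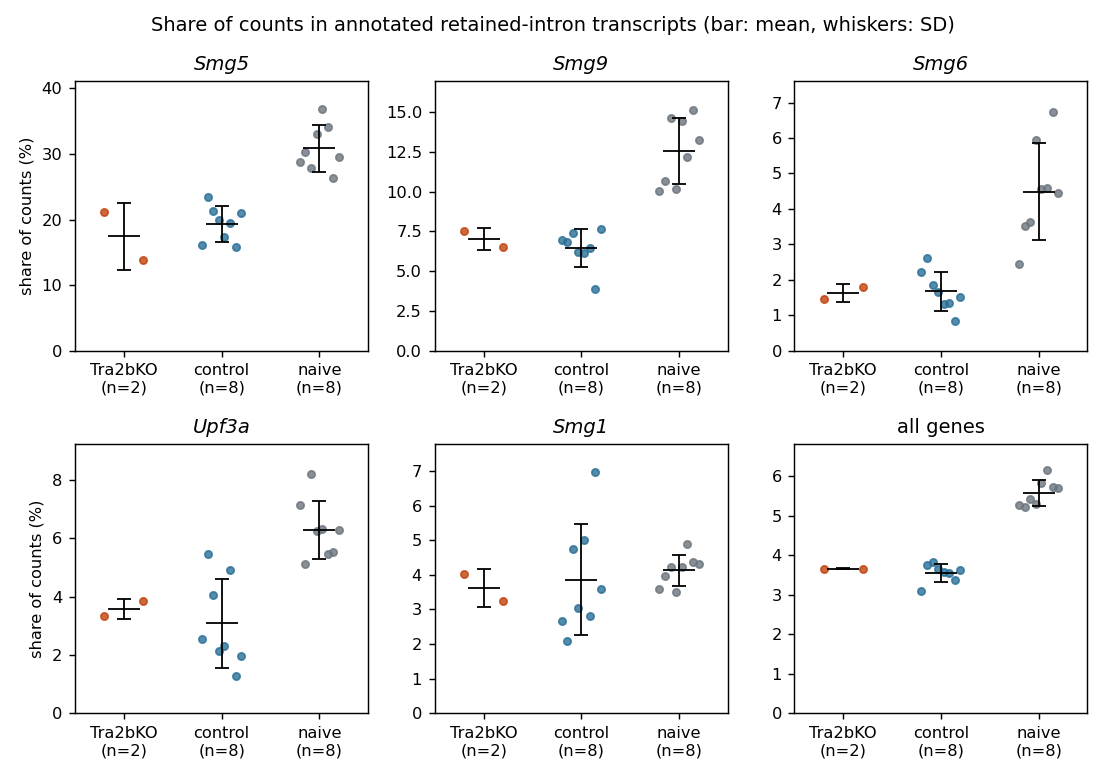
Share of a gene's counts in annotated retained-intron transcripts (y axis, percent, from 0) for Smg5, Smg9, Smg6, Upf3a and Smg1 and for all genes together, 1 point per library in Tra2bKO, control and naive, with mean and SD. Naive lies above both stimulated groups for Smg5, Smg9 and all genes, and the groups overlap for Smg1.

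A single coding model held nearly all counts of Upf2 (Upf2-201, at least 99.6% in every library) and all of Smg8 (Smg8-201, 100% in every library), and Smg1-201 held at least 89.7% of Smg1. Transcript usage, the change of a transcript relative to the other transcripts of its gene, was tested over all genes. With edgeR's diffSpliceDGE, 0 of 26 member transcripts were called in control against naive (4 had an unadjusted p under 0.05), where 2.95% of 34029 transcripts were called. In Tra2bKO against control 0 of 30 were called (0 with an unadjusted p under 0.05), beside 0.466% of 41639. With limma voom and diffSplice on the same transcripts, control against naive gave 6 member transcripts higher and 9 lower, beside 22.6% of all called, 10.1% higher and 12.5% lower, and Tra2bKO against control gave 0 (2 with an unadjusted p under 0.05), beside 3.18%. The 2 tests differed on which member transcripts passed the threshold in control against naive. On simulated counts at these group sizes, diffSpliceDGE recovered few or none of the planted usage changes and voom more but far from all. For planted 2-fold and 4-fold changes, diffSpliceDGE recovered 2% and 12% in control against naive, and voom 15% and 54%. In Tra2bKO against control these were 0% and 0%, and 2% and 13%. A transcript that was not called is thus not shown to have kept its usage. Voom also made 96 calls in genes without a planted change in control against naive, and 104 in Tra2bKO against control. Such calls by diffSpliceDGE numbered 33 and 65. A call by either test may therefore be false.

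By voom, 8 of 14 retained-intron models of the factors had lower usage in control than in naive and 1 higher, beside 25.7% and 1.19% of 9399 such models in all genes. By both tests 13 of 14 had a change below 0, and the median over all 9399 was -0.79 by edgeR and -0.86 by voom. Smg5-203 changed by -0.77 by voom (adjusted p = 2.97e-05) and -0.68 by edgeR (adjusted p = 0.499). For Smg9-205 the values were -0.85 (adjusted p = 0.000276) and -0.96 (adjusted p = 0.462). Smg6-203 changed by -1.47 by voom (adjusted p = 0.000141) and -1.37 by edgeR (adjusted p = 0.178), and Upf3a-203 by -1.03 (adjusted p = 0.00297) and -0.89 (adjusted p = 0.501). The other 4 retained-intron models called lower by voom, none of them called by edgeR, were Smg5-204 (-0.96, adjusted p = 0.0315), Smg9-206 (-1.03, adjusted p = 0.00154), Smg1-210 (-1.26, adjusted p = 0.0395) and Upf3a-202 (-1.16, adjusted p = 0.00394). The exception that was higher was Smg1-209, at 1.35 by voom (adjusted p = 0.0373) and 1.29 by edgeR (adjusted p = 0.201). The other 5 called higher by voom were the coding models Smg5-201 (0.91, adjusted p = 1.01e-07), Smg9-201 (1.10, adjusted p = 1.56e-08), Smg6-201, Upf3a-201 (1.24, adjusted p = 1.74e-05) and Upf3b-201. For Smg6 and Upf3b, with 2 transcripts tested, the coding value by voom mirrors that of the other model. By edgeR these 5 changed by 0.23, 0.10, 0.04, 0.05 and 0.05, none of them called. Mean shares of counts in naive and control were 68.5% and 80.2% for Smg5-201, 87.0% and 93.3% for Smg9-201, and 93.7% and 96.9% for Upf3a-201. The voom values are thus not fold gains of the coding share. Upf3b-203, a non-coding model, held 4.82% and 6.29% of Upf3b counts in Tra2bKO, 1.22% to 8.78% in control and 2.76% to 9.21% in naive, and changed by -1.30 in control against naive by voom (adjusted p = 0.00166).

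Upf1 has 2 coding models, and they differ by a 33-base stretch at the end of exon 7, besides their 5′ starts. Mammalian cells are known to make a UPF1 form with a longer regulatory loop in the helicase core by such alternative splicing. The stretch lies at chr8:70339982-70340014 on the minus strand of GRCm38 and is printed in capitals with 30 bases on each side, on the strand of the mRNA, to show what separates the models.
Upf1-201: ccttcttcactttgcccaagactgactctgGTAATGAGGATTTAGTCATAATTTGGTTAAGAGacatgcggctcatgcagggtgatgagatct
Upf1-202: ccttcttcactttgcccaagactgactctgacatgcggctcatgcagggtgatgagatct
Upf1-201, the longer model, held 9.48% and 13.0% of Upf1 counts in Tra2bKO. It held 5.88% to 35.7% in 7 control libraries and 87.7% in control 4, and 2.85% to 30.2% in 7 naive libraries and 93.8% in naive 5. Control 4 and naive 5 were also the libraries with the lowest Upf1 level of their groups, 37.5 and 25.3 CPM. Usage of Upf1-201 was not called in any test: it changed by 0.00 in control against naive by edgeR (adjusted p = 1) and by -1.03 in Tra2bKO against control (adjusted p = 1), where both Tra2bKO libraries lay inside the control range.

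**Figure D5:**
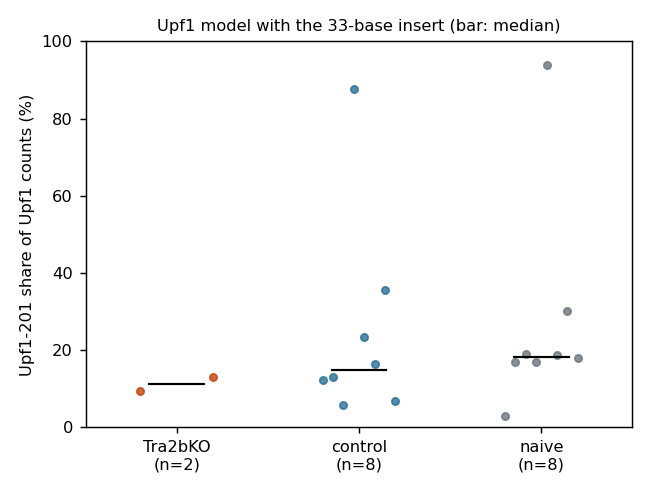
Share of Upf1 counts in Upf1-201, the model with the 33-base stretch (y axis, percent, 0 to 100), 1 point per library in Tra2bKO, control and naive, with the median as a bar. Control 4 (87.7%) and naive 5 (93.8%) stand apart from the other 16 libraries, which lie at or under 35.7%.

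Of the factors, 3 have a model annotated as a substrate of the pathway itself. Smg1-204 was at 0 counts in all 18 libraries. Smg5-202 held 0.360% and 0.331% of Smg5 counts in Tra2bKO, 0.148% to 0.690% in control and 0.264% to 0.943% in naive. Smg6-202 held 0% and 1.13% of Smg6 counts in Tra2bKO, 4.16% in control 1 and 4.93% in control 6, and was at 0 in the other 6 control and all 8 naive libraries. Over the 9 factors such models held 0.0716% and 0.243% of counts in Tra2bKO, 0.0533% to 0.528% in control and 0.0570% to 0.182% in naive, against 2.25% and 2.47%, 1.88% to 2.51% and 2.42% to 3.51% over all genes.

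The gene most like each factor in its pattern was taken as the one with the smallest root mean square difference of log2 CPM, centred on each gene's mean, over the 18 libraries, among 7071 genes. These were Lck for Smg9 (0.0694), Rnf4 for Upf3a (0.0752), Txndc9 for Upf3b (0.0838), AU040320 for Smg5 (0.0861), Las1l for Smg8 (0.102), H2-Q7 for Smg1 (0.108), Golga3 for Smg6 (0.111), Arf3 for Upf2 (0.128) and Tm9sf3 for Upf1 (0.157). None of the 9 factors was among the 3 nearest genes of another. The points share their libraries, and the measure is a description only.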

How the data were processed

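Poly(A)-primed libraries were made with a low-input kit from column-purified RNA, per the labels' protocols. The values are estimated counts per gene and per transcript, deposited by the authors as whole numbers, so that rounding changed none of them. The builds mm39 and mm10 and the tools StringTie 2.1.0, STAR 2.7.1a, DESeq2 1.30.1, SAMtools 1.9 and R 4.0.5 are named in the submitters' processing notes, without roles; how counts were derived from alignments is not given in the sources used here. Identifiers matched GENCODE M21 (GRCm38), whose names, coordinates and transcript sequences were used. Of 81881 rows, 26248 carry only a number as identifier and were left out (0.0513% to 0.132% of a library's counts).

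Each pair of groups was fitted with edgeR 4.0.16 (R 4.3.3): filterByExpr with a minimum count of 10, TMM factors, robust quasi-likelihood fit and test, Benjamini-Hochberg adjustment over all genes tested, called under 0.05. Levels are CPM with TMM factors over all 18 libraries. Transcript usage was tested with diffSpliceDGE over all transcripts passing the same filter. The alternatives were DESeq2 1.42.0, RLE factors, total counts, no filter, all groups in 1 fit, limma 3.58.1 (voom with quality weights, voom with diffSplice), a replicate block, removal of a smooth trend on GC content and exon length, subsets of controls, transcripts with at least 50 counts, leaving out receptor segments and markers of other cells, and leaving out each library. The scripts were tested on simulated counts.

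The 9 factors and both gene lists were chosen with earlier results of these data known. Named were all 9 factors, their transcripts at 5% or more of the gene's counts in a group or called, 6 pathway genes (Eif4a3, Magoh, Rbm8a, Casc3, Etf1, Gspt1) and 2 substrate genes (Gas5, Atf4) whatever their values, the called pathway genes with the 2 largest changes and the called substrate gene with the largest in each comparison, and the gene most like each factor among those whose log2 CPM averaged 4 or more. Exceptions are marked as named after their values were seen. Another pathway gene is not reported here.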

Additional observations from a re-analysis of the deposited data

Results flagged for a closer look

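In 56 groups of 8 libraries (levels of the 9 factors, shares of their transcripts and of their retained-intron models), 12 had a lowest or highest library whose gap to the next, relative to the range of the group, passed Dixon's critical value. Chance flags about 1 in 20 such groups, and shares of 1 gene are tied to each other. Upf1 gave 4 of the 12: Upf1-201 held 87.7% in control 4 (5.88% to 35.7% in the other 7) and 93.8% in naive 5 (2.85% to 30.2% in the others), and Upf1-202 correspondingly 12.3% and 6.22%. Control 4 also stood apart for Upf3b, with Upf3b-201 at 91.2% (95.2% to 98.4% in the others) and Upf3b-203 at 8.78% (1.22% to 4.78%). Control 7 stood apart for Smg1-201 at 89.7% (93.8% to 96.9%), Smg9-201 at 95.8% (92.0% to 93.7%), Smg9-205 at 2.78% (4.44% to 5.74%) and the retained-intron share of Smg9 at 3.86% (6.14% to 7.68%). For gene levels, Upf2 was at 25.9 CPM in control 6 (19.0 to 22.1 in the others) and Upf3a at 46.2 CPM in control 2 (38.5 to 41.8). No explanation of these values was tested.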

How the results depend on the processing

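Of the calls on single factors, Upf2, Smg1 and Smg9 in control against naive and Smg1 in Tra2bKO against naive held their direction and side of the threshold in every alternative run. In Tra2bKO against control, leaving out 1 library gave 0 to 2 factors called higher and 1 to 2 lower, in control against naive 0 to 2 and 3 to 5, and in Tra2bKO against naive 0 to 2 and 2 to 3. Other settings gave, for control against naive, 3 factors higher with DESeq2, 1 with RLE factors, 2 without a filter, 3 with the length and GC trend removed, and 1 with voom. For Tra2bKO against control they gave 0 and 0 with controls 1 and 2 alone, 0 and 1 with voom, and 1 lower with the trend removed; for Tra2bKO against naive, the trend removed gave 2 higher. Usage in control against naive had 6 higher and 9 lower by voom. Over all genes, Tra2bKO against control gave 1421 higher and 1351 lower, and 304 and 347 without Tra2bKO 2.

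Signs of small changes turned. With DESeq2 and RLE factors, Tra2bKO against control gave 0.00196 and 0.00197 for Upf3a and 0.0146 and 0.0146 for Smg5. With total counts, Smg5 was at 0.0077 in Tra2bKO against control, Upf3a at -0.078 and Upf3b at -0.0039 in control against naive, and Upf3a and Smg8 at -0.083 each in Tra2bKO against naive; the median of all genes moved by about as much, to -0.18 and -0.19 in the comparisons with naive. In 1 fit of all groups, Upf3a and Smg8 were at -0.0026 each in Tra2bKO against naive. With controls 1 and 2 alone Upf1 was at -0.11 and Smg5 at 0.089, and with controls 3 to 8 Upf3a at 0.036. With the trend removed, Smg1 was at -0.031 in Tra2bKO against control, Smg5 and Smg6 at 0.082 and 0.024 in control against naive, and Smg5 at 0.06001 in Tra2bKO against naive. Usage turned for Smg6-203 in Tra2bKO against control (0.0045 by voom) and for Upf1-201 in control against naive (-0.26 by voom, -0.0048 at 50 counts). Leaving out 1 library spanned -0.25 to 0.21 for Smg5, -0.29 to 0.38 for Upf1, -0.026 to 0.68 for Upf2 and -0.059 to 0.027 for Upf3a in Tra2bKO against control, -0.41 to 0.27 for Upf2, -0.033 to 0.081 for Upf3a, -0.35 to 0.079 for Smg5 and -0.087 to 0.12 for Smg8 in Tra2bKO against naive, and for usage -0.22 to 0.11 for Smg6-203 and -0.49 to 0.12 for Smg5-203 in Tra2bKO against control and -0.45 to 0.42 for Upf1-201 in control against naive. The cause was not tested.

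Deviations of same-numbered libraries correlated weakly, at -0.0400 to 0.0495 over 8 pairs of control and naive, 1 of which was highest with its own number. Tra2bKO 1 and 2 gave 0.0121 and 0.0595 with control, and 0.00394 and 0.0260 with naive. Tra2bKO 2 was highest with its own number in both. Such correlations do not settle whether a number marks a shared animal or batch, which is not given in the sources used here. With the number as a block, Tra2bKO against control gave 0 factors and 0 of all genes called, control against naive 1 factor higher, and Tra2bKO against naive 0 higher and 1 lower; Upf1 was at -0.083 and Smg5 at 0.0554 in Tra2bKO against control, Upf2 at 0.13 in Tra2bKO against naive, and Upf1-201 usage at -0.11 in control against naive. Since 6 controls have no Tra2bKO partner, that fit rests on 2 pairs.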
